A study of Homo sapiens with 18 samples.

Results

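Enzalutamide, an antiandrogen drug, was compared with its vehicle in prostate cancer cells that carried a control guide RNA. The comparison used the 3 libraries labelled control guide in DMSO and the 3 labelled control guide in enzalutamide, 6 of the 18 samples of the series, and was described over 14810 genes. All cells were 16D, a castration-resistant line derived from LNCaP, grown in RPMI with serum. Every culture, vehicle included, had received Cas9 and a guide RNA by lentivirus. The control guide (AAVS) cuts in the safe-harbour gene PPP1R12C, and the cells were then kept for 6 weeks in DMSO or in 10 µM enzalutamide. The rest of the series holds cells with 2 guides against OGDHL, a relative of a mitochondrial 2-oxoglutarate dehydrogenase subunit, of which guide 1 is used here for 1 comparison. A single cell line was used, so the values describe that line. Whether the 3 libraries of a group are separate cultures is not stated in the labels, and p-values therefore reflect the variation among these libraries alone, which can be technical.

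In prostate epithelium androgen switches on genes at chromatin sites opened by FOXA1, HOXB13 and GATA2. Androgen targets include secreted kallikreins and enzymes of lipid synthesis. Enzalutamide competes with androgen and blocks this programme.

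Levels are TPM, a read measure corrected for transcript length and library total, after rows without a gene name and the mitochondrially encoded genes were dropped and each library was rescaled to the same sum. TPM keeps no depth, so the depth behind each value is unknown. Mitochondrially encoded genes held 53.6% to 55.4% of deposited TPM in the vehicle libraries and 50.3% to 60.2% in the enzalutamide libraries, and RefSeq pseudogenes held 41.7% to 43.6% of the rescaled TPM. A gene was called where limma's adjusted p was under 0.05, and each change is a difference of means of log2(TPM + 1), so that changes of genes with low levels are understated. Means are given ± SD (n = 3 libraries a group), a value in brackets with no other name is the log2 change, and rose and fell are used of called genes alone. In bulk RNA, fewer cells of a kind and less RNA per cell cannot be told apart.

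Of the 14810 genes, 61.6% were called: 5037 were higher in enzalutamide (34%) and 4090 lower (27.6%), and the libraries of both groups did not overlap for 68%. With so many calls, a second rule was added after this share was seen: called and changed at least 2-fold, which 418 genes met as higher (2.82%) and 369 as lower (2.49%). A mean of 1 TPM was reached in 1 group only by 995 tested genes, which include 138 of the 418 and 141 of the 369 and which passed the filter through that group. In the lists below too, passing through the enzalutamide libraries favours a rise, and passing through the vehicle libraries a fall. The median change over all genes was 0.03, with 5th and 95th percentiles of -0.65 and 0.76. The split depended on scaling: median-of-ratios scaling gave 4265 higher and 5009 lower, quantile normalization gave 4608 and 4711, and it was 1625 and 2569 of 12020 genes with the mitochondrially encoded genes kept. Here and below, that last fit used the deposited TPM without rescaling. Other genes thus had lower values in it, against the same filter of 1 TPM and the same added 1. Of the tested genes 2535 were RefSeq pseudogenes, which the gene lists below leave out. Among the 11033 tested RefSeq protein-coding genes, 37.3% were higher and 30.8% lower. Counts of the lists are to be read beside these shares and those of all genes. For each gene whose 6 library values are given in the text, FOXA1 excepted, the 2 groups did not overlap. The plot of all tested genes shows the widest departures among low and middle levels.

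**Figure D1:**
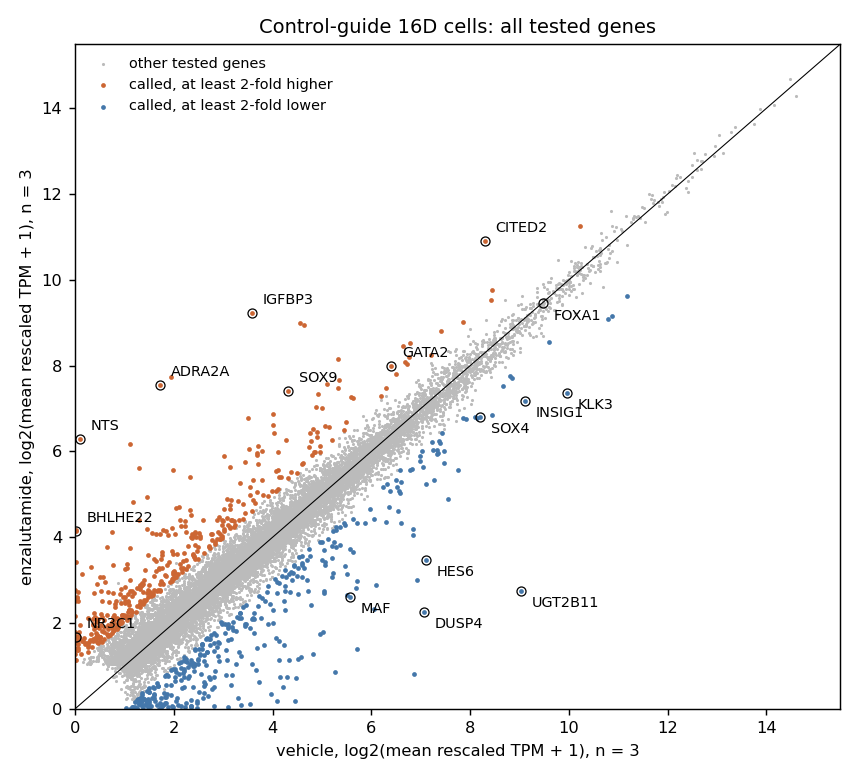
Mean rescaled TPM of each tested gene, as log2(TPM + 1), in the 3 vehicle libraries (horizontal) and the 3 enzalutamide libraries (vertical), with the line of equality. Orange points are the 418 genes called at least 2-fold higher, blue points the 369 called at least 2-fold lower, and circled genes are named in the text.

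The labelled cell type was checked against defining markers. All 10 luminal markers were tested, with summed levels of 4727 to 4858 TPM in vehicle and 3657 to 3794 TPM in enzalutamide. The members did not move alike. Among them KLK3 fell from 991 to 163 TPM and KRT19 from 6.16 to 0.836 TPM, while HOXB13 rose from 706 to 960 TPM. FOXA1 and CDH1 were not called. The 4 basal, 4 leukocyte and 4 endothelial markers each stayed under 1 TPM in every library, with sums of at most 0.281, 0.449 and 0.570 TPM in any library. Of 5 neuroendocrine markers, NEUROD1 was listed at 0 in all 6 libraries and CHGA reached 0.0286 TPM at most. Of 5 fibroblast markers, COL1A1 fell from 17.02 ± 0.457 to 9.73 ± 0.883 TPM and LUM, a proteoglycan listed at 0 in the 3 vehicle libraries, had 1.29, 1.11 and 1.202 TPM in enzalutamide; the other 3 stayed under 1 TPM.

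Pioneer factors of prostate epithelium, which open chromatin for other regulators, did not move alike. GATA2, a zinc finger factor, had 83.1, 83 and 84.2 TPM in the vehicle libraries and 262, 251 and 251 TPM in the enzalutamide libraries (log2 change 1.598, SE 0.0247, adjusted p = 2.4e-07). HOXB13, a homeodomain factor of prostate, rose from 706 ± 1.22 to 959.8 ± 35.7 TPM (log2 change 0.44, SE 0.02902, adjusted p = 4.9e-05). FOXA1, the forkhead pioneer factor of luminal cells, had 716, 736 and 684 TPM in the vehicle libraries and 709.8, 688 and 702 TPM in the enzalutamide libraries, and its groups overlapped (log2 change -0.02, adjusted p = 0.54). With median-of-ratios scaling FOXA1 passed as lower (-0.09, adjusted p = 0.0475), and with quantile normalization its change was 0.04. SPDEF, an ETS factor of secretory epithelium, fell from 33.7 ± 0.555 to 14.6 ± 0.783 TPM (log2 change -1.15).

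Of 31 tested coregulators and chaperones of steroid hormone receptors, 13 rose and 12 fell (5 and 7 with the mitochondrially encoded genes kept). FKBP5, an androgen-induced co-chaperone, fell from 15.1 ± 0.2498 to 3.93 ± 0.187 TPM (log2 change -1.71, SE 0.0375, adjusted p = 7.4e-07). NCOA1, a p160 coactivator, fell from 8.16 ± 0.246 to 2.59 ± 0.133 TPM (-1.35), while its relatives NCOA2 (2.03 to 3.66 TPM, 0.62) and NCOA3 (2.304 to 3.61 TPM, 0.48) rose. SMARCD3, a subunit of the SWI/SNF remodelling complex, rose from 6.91 ± 0.324 to 20.1 ± 0.478 TPM (1.42). The glucocorticoid receptor gene NR3C1, whose protein binds hormone response elements of the same kind as androgen signalling uses, had 0.00543, 0.00703 and 0.00574 TPM in the vehicle libraries and 2.18, 2.03 and 2.33 TPM in the enzalutamide libraries. It passed the filter through the enzalutamide libraries (log2 change 1.66, SE 0.0495, adjusted p = 2.4e-06). The mineralocorticoid receptor NR3C2 (0.880 ± 0.0663 to 0.138 ± 0.00837 TPM) and the progesterone receptor PGR (0.0168 ± 0.00663 to 0.279 ± 0.00654 TPM) stayed under 1 TPM and were not tested.

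Androgen-responsive genes were lower as a group. Of 92 tested, 72 fell and 7 rose, and 37 fell at least 2-fold, with a median of -0.51 beside 0.03 over all genes. The 7 that rose did so by less than 2-fold, and the 4 largest rises were those of SLC26A2 (0.54), ARID5B (0.497), CCND1 (0.398) and ITGAV (0.29). The 3 steepest falls on the list were in TARP, ADAMTS1 and MAF. ADAMTS1, a secreted metalloprotease, had 68.7, 66.7 and 66.6 TPM in the vehicle libraries and 6.97, 5.93 and 6.43 TPM in the enzalutamide libraries (log2 change -3.201, SE 0.0533, adjusted p = 3.0e-07). ACSL3, which activates long-chain fatty acids, fell from 113 ± 1.48 to 17.4 ± 0.735 TPM (-2.64), and TMPRSS2, a serine protease, from 25.6 ± 0.707 to 12.3 ± 0.466 TPM (-1.004). TARP, a prostate transcript within the T-cell receptor gamma locus, fell from 21.2 ± 0.435 to 0.656 ± 0.135 TPM (-3.75), and reads of that locus can be split between overlapping genes.

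Genes of proteins secreted by or displayed on luminal cells were also lower as a group. Of 23 tested, 17 fell and 5 rose, 13 fell at least 2-fold, and the median was -1.11. KLK3, the gene of prostate-specific antigen, had 964, 1004 and 1004 TPM in the vehicle libraries and 164, 168 and 157 TPM in the enzalutamide libraries. KLK2, its neighbour and relative, had 88.04, 93.2 and 93.4 TPM in the vehicle libraries and 21.99, 24.8 and 24.1 TPM in the enzalutamide libraries. For both kallikreins the enzalutamide libraries lay below all vehicle libraries (log2 change -2.595, adjusted p = 1.1e-07 for KLK3 and -1.91, adjusted p = 1.4e-06 for KLK2). SLC45A3, a prostate membrane transporter, fell from 121 ± 2.14 to 6.98 ± 0.675 TPM (-3.94), STEAP4, a metalloreductase, from 3.42 ± 0.43 to 0.0414 ± 0.00538 TPM (-2.08) and CHRNA2, a nicotinic receptor subunit, from 4.08 ± 0.218 to 0.0522 ± 0.0163 TPM (-2.27). Not every secretory gene went the same way. ACP3, prostatic acid phosphatase, had 2.71, 2.87 and 2.48 TPM in the vehicle libraries and 15.7, 15.8 and 14.9 TPM in the enzalutamide libraries (log2 change 2.16, SE 0.0486, adjusted p = 8.2e-07), and the secreted phospholipase PLA2G2A rose from 4.702 ± 0.452 to 16.1 ± 0.425 TPM (1.59). FOLH1, the gene of prostate-specific membrane antigen, rose from 123 ± 2.07 to 202 ± 1.56 TPM (0.71).

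The promoters of the 2 kallikreins are shown because their fall is a common readout of androgen signalling and because they differ at the androgen response half-site. The sequences are the 250 bases before the transcription start (RefSeq, GRCh38.p14), with capitals at the half-site AGAACA in KLK3 and at the 6 bases that align with it in KLK2. KLK3 lies at chr19:50854665-50854914, + strand and KLK2 at chr19:50873189-50873438, + strand.
KLK3: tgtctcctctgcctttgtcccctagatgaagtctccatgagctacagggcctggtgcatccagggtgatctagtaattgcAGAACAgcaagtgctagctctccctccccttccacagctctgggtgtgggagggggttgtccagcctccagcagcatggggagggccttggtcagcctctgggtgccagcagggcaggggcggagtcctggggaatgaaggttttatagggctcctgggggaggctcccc
KLK2: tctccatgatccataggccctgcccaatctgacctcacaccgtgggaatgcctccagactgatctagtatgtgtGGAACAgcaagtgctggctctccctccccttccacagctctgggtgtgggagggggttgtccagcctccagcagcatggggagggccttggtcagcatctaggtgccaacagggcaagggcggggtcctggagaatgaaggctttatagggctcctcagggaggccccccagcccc
The half-site begins 170 bases before the start in KLK3. Over the 15 bases from there, the closest stretch of the KLK2 promoter begins 176 bases before its start and differs by 1 substitution, A1G, with positions counted from the first base of the KLK3 half-site. AGAACA, read on both strands, was found in the 300-base promoters (250 before to 50 after the start) of 8.73% of 9861 tested genes and 14.9% of all 27305 promoters of the table. It was in 33 of 250 promoters of genes at least 2-fold lower (13.2%), 30 of 285 at least 2-fold higher (10.5%) and 4 of 54 androgen-responsive genes that fell (7.41%). A match of 6 letters is a description of sequence only.

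Genes that androgen is known to hold down were mixed. Of 14 tested, 7 rose, 6 of them at least 2-fold, and 4 fell, 3 of them at least 2-fold. CAMK2N1, an inhibitor of CaM kinase II, had 9.94, 11.2 and 9.84 TPM in the vehicle libraries and 117, 104 and 106 TPM in the enzalutamide libraries (log2 change 3.28, SE 0.0651, adjusted p = 5.6e-07). OPRK1, the kappa opioid receptor, rose from 3.28 ± 0.104 to 25.3 ± 0.989 TPM (2.62), CCN3, a matricellular protein, from 0.106 ± 0.03401 to 7.79 ± 0.548 TPM (2.99) and DDC, the decarboxylase that makes dopamine, from 0.438 ± 0.0428 to 5.69 ± 0.184 TPM (2.22). CCN3 and DDC passed the filter through the enzalutamide libraries, which favours a rise. The androgen-glucuronidating enzyme UGT2B15, which the list holds as repressed, fell from 114 ± 5.06 to 15.6 ± 0.324 TPM (-2.797). Members of the UGT2B family are close copies of each other, and reads may have been divided among them unevenly.

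**Figure D2:**
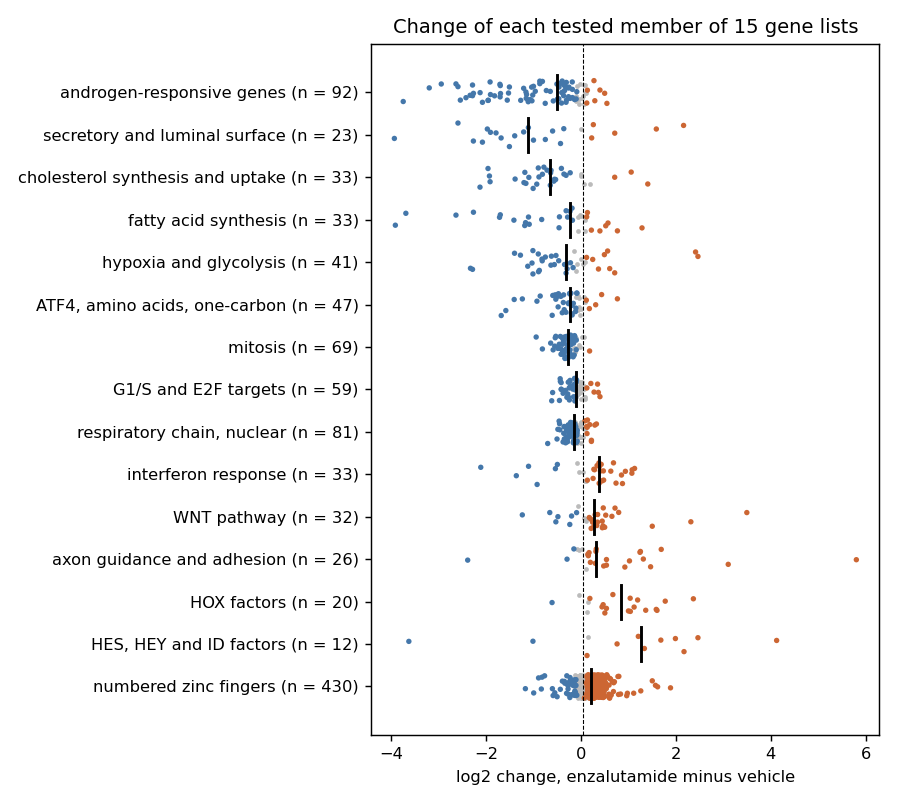
Log2 change (enzalutamide minus vehicle) of every tested member of 15 gene lists, one point a gene, with the median as a black bar and the all-gene median as a dashed line. Orange and blue points were called higher and lower, and grey points were not called. Androgen-responsive and sterol genes lie mostly to the left, and HOX and HES, HEY and ID factors mostly to the right.

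Of the transcription factors of 31 families 841 were tested, of which 451 rose and 155 fell (41 and 26 at least 2-fold), with a median of 0.15. The counts were 140 and 97 of 685 with the mitochondrially encoded genes kept. Much of that count came from numbered zinc fingers, many of them repressors of transposable elements. Of 430 tested, 262 rose and 40 fell, with only 6 and 1 past 2-fold and a median of 0.20 (0.14 with median-of-ratios scaling, 0.15 with quantile normalization). With the mitochondrially encoded genes kept, 63 rose and 20 fell of 364. ZNF629 had the largest rise among those with at least 5 TPM, from 16.2 ± 0.286 to 62.4 ± 3.38 TPM (1.89). Without that family, 189 of 411 rose and 115 fell, and 35 and 25 did so at least 2-fold. The counts without it were 166 and 135 with median-of-ratios scaling. With the mitochondrially encoded genes kept, 77 rose and 77 fell of 321, beside 1625 and 2569 of all 12020 genes in that fit. In that setting rises did not outnumber falls among these factors, whereas over all genes falls outnumbered rises.

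HOX genes, the homeodomain factors that set position along the body axis, were higher as a group. The series measured 35, and 20 of them were tested: 16 rose, 9 of them at least 2-fold, and 1 fell, with a median of 0.83, and 16 rose and 1 fell also with median-of-ratios scaling and quantile normalization. With the mitochondrially encoded genes kept, 12 of 16 rose and none fell. Some of the rising genes, HOXB6 among them, were under 1 TPM in every vehicle library. These genes passed the filter through the enzalutamide libraries, which favours a rise. HOXA13, which with the other 5′ members patterns the urogenital tract, had 2.38, 2.51 and 1.98 TPM in the vehicle libraries and 16.5, 14.7 and 16.8 TPM in the enzalutamide libraries (log2 change 2.37, SE 0.0781, adjusted p = 3.4e-06). In the A cluster HOXA11 rose from 1.11 ± 0.0519 to 5.42 ± 0.567 TPM (1.6) and HOXA10 from 7.57 ± 0.158 to 18.6 ± 0.972 TPM (1.19). The middle genes of that cluster did not pass: the log2 change was 0.14 for HOXA4, 0.13 for HOXA5 and -0.03 for HOXA6. In the B cluster HOXB6 rose from 0.883 ± 0.0612 to 5.44 ± 0.123 TPM (1.77) and HOXB9 from 6.63 ± 0.668 to 14.6 ± 0.688 TPM (1.03). In the C cluster HOXC13 rose from 11.9 ± 0.193 to 32.1 ± 1.46 TPM (1.36) and HOXC9 from 2.23 ± 0.199 to 8.68 ± 0.429 TPM (1.58), whereas HOXC10, which lies between them, fell from 2.56 ± 0.136 to 1.33 ± 0.117 TPM (-0.61). HOXD13 was the only member of the D cluster to reach the filter, and it rose from 1.41 ± 0.159 to 3.81 ± 0.279 TPM (0.998). The 15 members that were not tested had means between 0 and 1.29 TPM in each group.

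**Figure D3:**
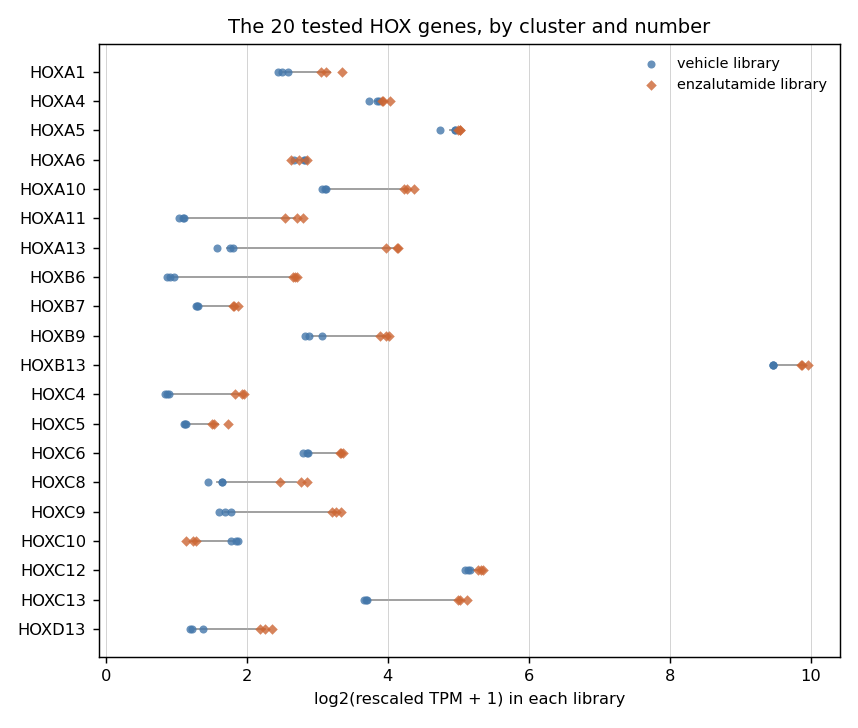
Log2(rescaled TPM + 1) of each of the 20 tested HOX genes in the 3 vehicle (blue circles) and 3 enzalutamide libraries (orange diamonds), ordered by cluster and number, with a line between group means. Enzalutamide lies to the right for 16 genes that rose, and to the left for HOXC10.

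The HES, HEY, ID and BHLHE factors, most of them repressors or inhibitors of basic helix-loop-helix activators, formed the family with the highest median among those with at least 10 tested members. Of 12 tested, 9 rose, 7 of them at least 2-fold, and 2 fell, with a median of 1.27 (6 and 2 of 10 with the mitochondrially encoded genes kept). Of the ID proteins, which bind such factors and keep them off DNA, 3 rose: ID1 from 38.8 ± 2.07 to 178 ± 6.32 TPM (2.17), ID2 from 47.04 ± 0.518 to 153 ± 6.17 TPM (1.68) and ID3 from 104 ± 9.21 to 264 ± 10.5 TPM (1.33). ID4 went from 10.1 ± 0.899 to 11.2 ± 0.432 TPM (0.15, adjusted p = 0.091). HES1, the classical Notch-induced repressor, had 11.8, 12.7 and 11.7 TPM in the vehicle libraries and 50.1, 49.4 and 53.1 TPM in the enzalutamide libraries. HES6, a relative that opposes HES1, had 143, 134 and 132 TPM in the vehicle libraries and 10.7, 10.8 and 8.84 TPM in the enzalutamide libraries. The 2 genes moved in opposite directions with no overlap of libraries (log2 change 1.99, adjusted p = 7.6e-07 for HES1 and -3.63, adjusted p = 7.0e-07 for HES6). BHLHE22, a neural factor, had 0.0292, 0 and 0 TPM in the vehicle libraries and 16.3, 16.5 and 16.9 TPM in the enzalutamide libraries, so it was listed at 0 in 2 vehicle libraries. BHLHE41, a clock-controlled repressor, rose from 0.0398 ± 0.0351 to 4.73 ± 0.08997 TPM (2.46), and its relative BHLHE40 fell from 129 ± 12.2 to 63.04 ± 1.64 TPM (-1.01). BHLHE22 and BHLHE41, both counted among the rises, passed the filter through the enzalutamide libraries. That favours a rise and a higher family median.

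Of the SOX family, 2 of 8 rose and 4 fell. SOX9, a factor of prostate development and plasticity, had 19.4, 19.7 and 17.8 TPM in the vehicle libraries and 177, 165 and 164 TPM in the enzalutamide libraries (log2 change 3.09, SE 0.04998, adjusted p = 2.6e-07). SOX4, another plasticity factor, had 295, 293 and 290.0 TPM in the vehicle libraries and 112, 111 and 111 TPM in the enzalutamide libraries (log2 change -1.38, SE 0.0179, adjusted p = 1.3e-07). Neither gene showed any overlap of libraries. SOX2 stayed under 1 TPM in every library.

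Of the other homeodomain factors, 30 of 53 rose (56.6%) and 14 fell (26.4%), beside 34.0% and 27.6% of all tested genes. With the mitochondrially encoded genes kept, 13 rose and 8 fell of 36. The distal-less genes differed within the family: DLX1 fell from 50.8 ± 1.34 to 6.003 ± 0.12 TPM (log2 change -2.89, SE 0.0303, adjusted p = 7.5e-08), DLX2 from 4.59 ± 0.6502 to 1.19 ± 0.232 TPM (-1.35), and DLX3 rose from 0.522 ± 0.0691 to 6.71 ± 0.713 TPM (2.34). NKX6-1, a neural and pancreatic factor, rose from 3.99 ± 0.224 to 24.02 ± 0.782 TPM (2.33). Among forkhead factors 16 of 29 rose and 9 fell (5 and 4 of 18 with the mitochondrially encoded genes kept). FOXQ1 rose from 0.671 ± 0.165 to 16.5 ± 0.348 TPM (3.39) and FOXO3, the factor that AKT holds out of the nucleus, from 11.5 ± 0.378 to 26.8 ± 1.25 TPM (1.16).

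Among factors of other families, ZIC2, a zinc finger factor of neural development, had 31.1, 31.6 and 30.95 TPM in the vehicle libraries and 132, 125 and 127 TPM in the enzalutamide libraries (log2 change 2.004, SE 0.0274, adjusted p = 1.5e-07). MAF, a large bZIP factor, had 46.99, 46.9 and 44.9 TPM in the vehicle libraries and 5.25, 4.96 and 5.17 TPM in the enzalutamide libraries (log2 change -2.95, SE 0.0325, adjusted p = 8.5e-08). SNAI2, a repressor of epithelial genes, fell from 11.7 ± 0.502 to 0.879 ± 0.0446 TPM (-2.76), while SNAI1 rose from 4.68 ± 0.581 to 7.64 ± 0.698 TPM (0.61) and OVOL1, which counters mesenchymal change, from 4.74 ± 0.506 to 14.9 ± 0.85 TPM (1.47). EHF, an epithelial ETS factor, fell from 271 ± 12.1 to 110.0 ± 4.26 TPM (-1.295), CEBPD from 81.3 ± 3.74 to 25.3 ± 0.396 TPM (-1.65), ZBTB16 from 5.26 ± 0.165 to 1.01 ± 0.0307 TPM (-1.64) and HIF1A, the oxygen-sensing factor, from 38.2 ± 2.24 to 16.9 ± 0.553 TPM (-1.12). MYC went from 437 ± 14.5 to 404 ± 12.5 TPM (-0.11, adjusted p = 0.029), a call that was lost in several other fits. The adjusted p was 0.573 with quantile normalization, and 0.0871, 0.087 and 0.0765 without vehicle replicate 2, vehicle replicate 3 or enzalutamide replicate 2. The dot plot of 22 factors of largest change shows replicate spreads that are narrow beside the distance between groups.

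**Figure D4:**
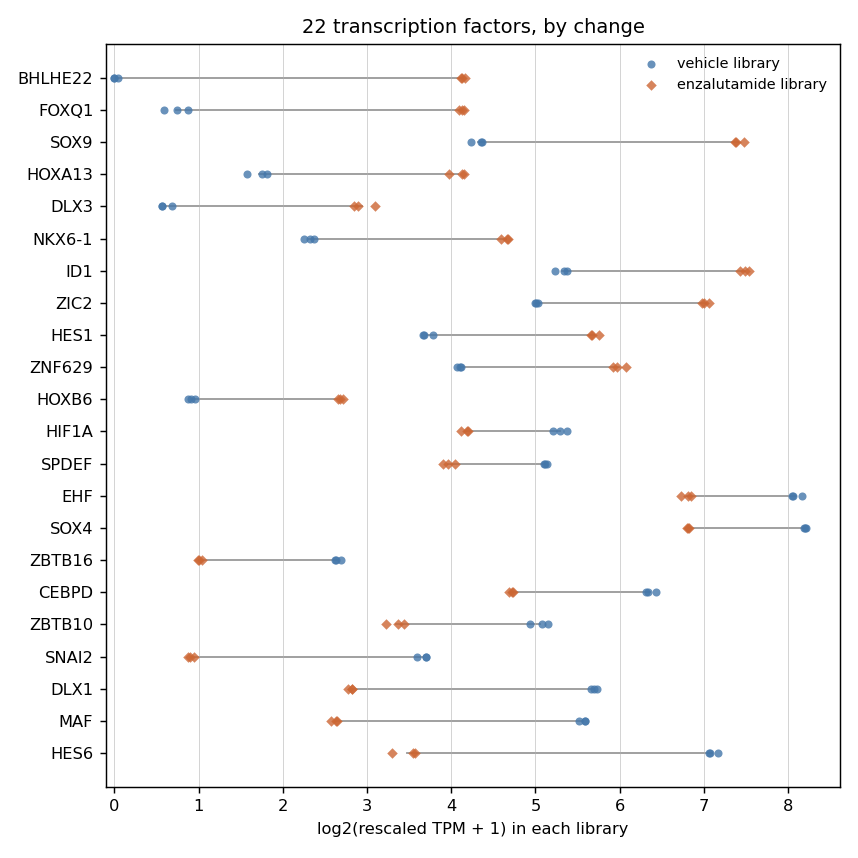
Log2(rescaled TPM + 1) in each vehicle library (blue circles) and enzalutamide library (orange diamonds) of 22 transcription factors of largest change, with a line between group means. For every factor shown the 3 libraries of one group lie apart from the 3 of the other, which was a condition for being shown.

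Of 22 feedback genes and targets of the MAP kinase pathway, 10 rose (45.5%) and 6 fell (27.3%). Of all tested genes 34.0% rose and 27.6% fell, and of the protein-coding ones 37.3% and 30.8%. In the fit that kept the mitochondrially encoded genes, 5 rose and 5 fell of 18. DUSP4, a nuclear phosphatase of ERK and JNK, had 131, 133 and 135 TPM in the vehicle libraries and 4.31, 3.59 and 3.52 TPM in the enzalutamide libraries (log2 change -4.804, SE 0.0646, adjusted p = 1.5e-07). PHLDA1, a growth factor-induced gene, fell from 16.5 ± 0.955 to 1.98 ± 0.0326 TPM (-2.56) and SPRY1 from 7.53 ± 0.827 to 2.805 ± 0.108 TPM (-1.16). SPRY4 (0.0225 to 5.04 TPM, 2.56) and DUSP6 (0.709 to 3.42 TPM, 1.38), both induced by ERK, rose from under 1 TPM. In the PI3K, AKT and FOXO list 16 of 35 rose and 12 fell (8 and 7 of 29 with the mitochondrially encoded genes kept). PIK3R1, the regulatory subunit of PI3K, rose from 9.09 ± 0.5401 to 37.5 ± 1.47 TPM (1.93), SESN1, a FOXO and p53 target that restrains mTORC1, from 2.9 ± 0.0607 to 17.6 ± 0.652 TPM (2.25) and CITED2, a CBP/p300-binding regulator, from 312 ± 9.83 to 1921 ± 69.4 TPM (2.62). IRS1, the insulin receptor substrate, fell from 3.08 ± 0.0686 to 0.681 ± 0.0417 TPM (-1.28) and IGF1R from 1.41 ± 0.0357 to 0.172 ± 0.0255 TPM (-1.04). Of the binding proteins of insulin-like growth factors, IGFBP3 had 10.6, 10.8 and 11.3 TPM in the vehicle libraries and 566, 593 and 641 TPM in the enzalutamide libraries (log2 change 5.66, SE 0.04999, adjusted p = 5.7e-08) and IGFBP5 rose from 1.95 ± 0.2502 to 16.2 ± 1.16 TPM (2.54).

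In the WNT list 21 of 32 rose and 7 fell (median 0.28). WNT5A, a ligand of the non-canonical branch, had 1.698, 1.88 and 1.63 TPM in the vehicle libraries and 30.2, 29.2 and 29.98 TPM in the enzalutamide libraries (log2 change 3.49, SE 0.0418, adjusted p = 1.0e-07). LEF1, which carries β-catenin to DNA, rose from 1.02 ± 0.0447 to 4.72 ± 0.132 TPM (1.5) and APCDD1, a WNT antagonist, from 1.07 ± 0.00248 to 9.302 ± 0.537 TPM (2.31), while the receptor gene FZD8 fell from 21.9 ± 0.372 to 8.699 ± 0.532 TPM (-1.24). In the TGF-beta and BMP list 20 of 35 rose and 7 fell. The activin subunit INHBB rose from 1.02 ± 0.207 to 8.64 ± 0.429 TPM (2.26) and the decoy receptor BAMBI from 98.2 ± 4.67 to 351 ± 2.62 TPM (1.83), and PMEPA1, an androgen-induced inhibitor of SMAD signalling, fell from 14.5 ± 0.153 to 4.43 ± 0.238 TPM (-1.51). Notch genes were balanced (11 of 26 rose, 10 fell), with NOTCH3 higher (2.33 to 10.3 TPM, 1.76) and the ligand JAG1 lower (3.37 to 2.03 TPM, -0.53). With the mitochondrially encoded genes kept, the rising counts were 9 of 23 for WNT, 9 of 24 for TGF-beta and BMP and 3 of 22 for Notch.

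Genes of axon guidance and adhesion rose in 19 of 26 cases and fell in 3, and 8 of the rises were at least 2-fold (9 and 2 of 19 with the mitochondrially encoded genes kept). LRRN1, a neuronal leucine-rich repeat protein, had 2.81, 2.93 and 2.75 TPM in the vehicle libraries and 217, 203 and 218 TPM in the enzalutamide libraries (log2 change 5.803, SE 0.0385, adjusted p = 3.6e-08). SEMA3C, a secreted semaphorin, rose from 1.45 ± 0.151 to 19.99 ± 1.21 TPM (3.102), its receptor NRP1 from 4.35 ± 0.124 to 16.3 ± 0.423 TPM (1.69), and the ephrins EFNB2 and EFNB3 from 4.397 ± 0.0778 to 16.5 ± 0.653 TPM (1.7) and 4.08 ± 0.302 to 21.98 ± 1.23 TPM (2.18). FLRT2, an adhesion protein, fell from 5.47 ± 0.437 to 0.233 ± 0.0344 TPM (-2.39). The alpha-2 receptor ADRA2A, which lowers cyclic AMP, had 2.48, 2.13 and 2.23 TPM in the vehicle libraries and 197, 181 and 177 TPM in the enzalutamide libraries (log2 change 5.83, SE 0.0574, adjusted p = 6.7e-08). ADRB1, a beta receptor that raises cyclic AMP, had 27.7, 26.8 and 27.3 TPM in the vehicle libraries and 1.49, 1.53 and 1.305 TPM in the enzalutamide libraries (log2 change -3.53, SE 0.0434, adjusted p = 1.1e-07). ADRA2C also rose (7.82 to 48.9 TPM, 2.502), and RGS2, a brake on G-protein signalling, fell from 65.3 ± 3.53 to 4.01 ± 0.487 TPM (-3.73).

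A pair of neuropeptide genes rose from near 0, while NEUROD1 was listed at 0 and CHGA stayed near 0, as given above. NTS, neurotensin, had 0.0547, 0.0579 and 0.0809 TPM in the vehicle libraries and 77.3, 79.3 and 74.6 TPM in the enzalutamide libraries (log2 change 6.196, SE 0.0337, adjusted p = 2.4e-08). ADCYAP1, the neuropeptide PACAP, had 0.01303, 0 and 0.0275 TPM in the vehicle libraries and 16.7, 16.3 and 17.6 TPM in the enzalutamide libraries (log2 change 4.14, SE 0.0393, adjusted p = 6.3e-08). ENO2, the neuronal enolase, rose from 15.3 ± 1.71 to 85.2 ± 1.44 TPM (2.41). Of 24 neuroendocrine and neuronal markers, 6 were tested and 5 of these rose (83.3%), beside 34.0% of all tested genes. With the mitochondrially encoded genes kept, 3 of 4 rose. NTS, which is on this list, passed the filter through the enzalutamide libraries alone, which favours a rise. The members not tested were too low for the filter and are not in these counts. SYP, synaptophysin, went from 1.53 ± 0.243 to 2.096 ± 0.189 TPM (0.29, adjusted p = 0.024).

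Mitotic genes fell together but by little. Of 69 tested, 58 fell and 1 rose, none by 2-fold, with a median of -0.27, and 43 of 66 fell with the mitochondrially encoded genes kept. PLK1, the polo-like kinase of mitotic entry, had 82.1, 83.95 and 84.4 TPM in the vehicle libraries and 57.3, 53.9 and 54.4 TPM in the enzalutamide libraries (log2 change -0.59, SE 0.02998, adjusted p = 1.7e-05). CDC25B, a phosphatase that activates CDK1, fell from 56.6 ± 1.29 to 28.9 ± 0.567 TPM (-0.95), HMMR, a spindle protein, from 45.2 ± 1.39 to 25.2 ± 0.592 TPM (-0.82) and CCNA2, cyclin A2, from 81.6 ± 2.81 to 52.02 ± 3.55 TPM (-0.64). TOP2A was the 1 that rose (56.8 to 64.5 TPM, 0.18). Of 59 genes of the G1/S transition and E2F targets, 30 fell and 6 rose (median -0.10), and E2F1 itself went from 51.6 ± 0.753 to 47.3 ± 0.992 TPM (-0.12). With the mitochondrially encoded genes kept, 17 of 55 fell and none rose. CCND1, cyclin D1, rose from 223 ± 1.804 to 294 ± 8.21 TPM (0.398), a call lost with the mitochondrially encoded genes kept. Of 28 CDK inhibitors and quiescence genes, 12 rose and 9 fell, against 10 and 12 with median-of-ratios scaling and 4 and 5 of 27 with the mitochondrially encoded genes kept. CDKN2B rose from 0.759 ± 0.152 to 4.399 ± 0.241 TPM (1.62) and BTG2 from 109.8 ± 1.75 to 367 ± 8.22 TPM (1.73), and CDKN1A went from 55.99 ± 1.09 to 63.03 ± 1.99 TPM (0.17), which did not pass with median-of-ratios scaling (adjusted p = 0.0721).

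The promoters of PLK1 and HMMR are shown because both hold TTTGAA, the CHR element through which the MuvB complexes time mitotic genes, just before the start. They are the 250 bases before the start, with TTTGAA in capitals, at chr16:23678639-23678888, + strand and chr5:163460382-163460631, + strand.
PLK1: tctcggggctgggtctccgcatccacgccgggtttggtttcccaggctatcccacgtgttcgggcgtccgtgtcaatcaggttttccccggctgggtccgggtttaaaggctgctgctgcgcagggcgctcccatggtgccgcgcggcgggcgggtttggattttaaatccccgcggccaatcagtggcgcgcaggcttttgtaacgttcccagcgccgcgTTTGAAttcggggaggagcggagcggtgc
HMMR: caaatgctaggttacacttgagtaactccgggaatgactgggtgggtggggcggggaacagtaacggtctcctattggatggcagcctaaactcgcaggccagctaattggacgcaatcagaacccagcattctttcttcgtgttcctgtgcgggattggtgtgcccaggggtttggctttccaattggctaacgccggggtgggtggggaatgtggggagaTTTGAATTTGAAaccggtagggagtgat
The element begins 29 bases before the start in PLK1, and HMMR holds it in 2 adjoining copies that begin 28 and 22 bases before the start. On both strands, TTTGAA was in 30 of 47 promoters of mitotic genes that fell (63.8%), beside 9.23% of the 9861 promoters of tested genes, 15.4% of all 27305 and 12% of the 250 for genes at least 2-fold lower. The E2F letters TTTGGCGC or TTTCGCGC were in 7 of 24 promoters of G1/S and E2F genes that fell (29.2%) and 2.14% of those of tested genes. Both lists were chosen for known function, so these shares describe the lists and not the drug response.

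Genes of sterol and fatty acid synthesis were mostly lower. Of 33 tested genes of cholesterol synthesis and uptake, 26 fell, 10 of them at least 2-fold, and 3 rose, with a median of -0.65, and 26 fell under every scaling tried. INSIG1, the sterol sensor of the endoplasmic reticulum, had 543, 546 and 560.4 TPM in the vehicle libraries and 148, 141 and 145 TPM in the enzalutamide libraries (log2 change -1.92, SE 0.0246, adjusted p = 1.3e-07). STARD4, a cholesterol carrier, fell from 35.8 ± 1.72 to 7.44 ± 0.942 TPM (-2.13) and NPC1, which exports cholesterol from lysosomes, from 25.1 ± 0.491 to 5.71 ± 0.3 TPM (-1.96). The factors that drive these genes also fell, SREBF1 from 186 ± 0.258 to 108 ± 5.71 TPM (-0.78) and SREBF2 from 48.3 ± 1.24 to 25.6 ± 0.958 TPM (-0.89). ABCG1, a cholesterol exporter that LXR induces, rose from 0.395 ± 0.0343 to 2.69 ± 0.0768 TPM (1.41). Of 33 genes of fatty acid synthesis and desaturation, 19 fell, 11 at least 2-fold, and 8 rose. The elongase ELOVL2 had 15.8, 16.4 and 15.7 TPM in the vehicle libraries and 0.162, 0.124 and 0.0916 TPM in the enzalutamide libraries (log2 change -3.92, SE 0.0391, adjusted p = 6.7e-08). ELOVL7 fell from 17.4 ± 1.104 to 0.421 ± 0.0727 TPM (-3.69) and ELOVL5 from 95.8 ± 2.798 to 19.1 ± 0.527 TPM (-2.27), whereas the desaturase SCD5 rose from 0.454 ± 0.0149 to 2.54 ± 0.0574 TPM (1.28). Fatty acid oxidation genes rose in 19 of 34 cases and fell in 5, with 6 and 2 of 31 when the mitochondrially encoded genes were kept.

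Steroid-inactivating enzymes had the steepest falls of all genes tested. UGT2B11 had 514, 533 and 522 TPM in the vehicle libraries and 6.81, 5.55 and 4.702 TPM in the enzalutamide libraries and UGT2B28 had 111, 119 and 118 TPM in the vehicle libraries and 0.8805, 0.7102 and 0.661 TPM in the enzalutamide libraries (-6.304 and -6.06). HSD3B1, which makes androgen precursors, rose from 0.427 ± 0.0772 to 1.79 ± 0.205 TPM (0.97).

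Glycosylation and hexosamine genes fell in 29 of 54 cases and rose in 13 (18 and 3 of 46 with the mitochondrially encoded genes kept). ST6GALNAC1, which builds the sialyl-Tn antigen, had 20.9, 20.3 and 21.2 TPM in the vehicle libraries and 0.1896, 0.104 and 0.124 TPM in the enzalutamide libraries (log2 change -4.26, SE 0.0416, adjusted p = 6.7e-08), and UAP1, which makes UDP-GlcNAc, fell from 77.8 ± 0.744 to 19.3 ± 0.324 TPM (-1.96). Hypoxia and glycolysis genes fell in 26 of 41 cases and rose in 9, among them NDRG1 (lower, 31.9 to 5.68 TPM, -2.29) and hexokinase HK2 (lower, 20.1 to 6.99 TPM, -1.403). At least 2-fold, 8 of them fell and 2 rose, with a largest rise of 2.46. ATF4 targets, amino acid transport and one-carbon genes fell in 33 of 47 cases and rose in 5 (22 and 2 of 45 with the mitochondrially encoded genes kept). Within them GDF15, a stress cytokine, fell from 35.6 ± 4.39 to 10.4 ± 0.868 TPM (-1.68) and the glutamine carrier SLC1A5 from 113 ± 2.65 to 47.3 ± 2.09 TPM (-1.24).

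Of 81 nuclear-encoded respiratory chain genes 56 fell and 10 rose, none by 2-fold (median -0.16), and 27 of 78 fell and none rose with the mitochondrially encoded genes kept. MPC2, a subunit of the mitochondrial pyruvate carrier, fell from 127 ± 0.281 to 53.5 ± 0.835 TPM (-1.23), and OGDHL rose from 5.61 ± 0.116 to 9.41 ± 0.343 TPM (0.66). ODC1, the first enzyme of polyamine synthesis, fell from 712 ± 6.85 to 410.3 ± 1.79 TPM (-0.79). Lysosome and autophagy genes rose in 29 of 52 cases and fell in 8 (10 and 5 of 49 with the mitochondrially encoded genes kept), with LAMP2 higher (46.1 to 78.1 TPM, 0.75). In the interferon list 22 of 33 rose and 6 fell (8 and 3 of 22 with the mitochondrially encoded genes kept). HLA-B, a class I antigen gene with close relatives that share its sequence, rose from 19.8 ± 0.436 to 44.6 ± 2.201 TPM (1.13), and the ISG15 ligase HERC5 fell from 4.68 ± 0.157 to 0.311 ± 0.0143 TPM (-2.12).

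Epithelial structure changed in part. Of 29 keratin and junction genes 17 fell and 8 rose: KRT19 fell from 6.16 ± 0.5402 to 0.836 ± 0.114 TPM (-1.96), desmoglein DSG2 from 90.8 ± 2.47 to 34.9 ± 1.8 TPM (-1.36), and occludin, OCLN, rose from 6.91 ± 0.524 to 18.4 ± 0.571 TPM (1.29). CDH1, E-cadherin, went from 67.9 ± 1.59 to 67.7 ± 2.193 TPM (-0.005, adjusted p = 0.91). Of 10 mesenchymal genes 4 rose and 6 fell. VIM, vimentin, fell from 13.9 ± 1.22 to 2.97 ± 0.103 TPM (-1.91), and FN1, fibronectin, rose from 35.1 ± 1.32 to 59.4 ± 4.598 TPM (0.74). Outside both lists, TNC, a matrix glycoprotein, had 0.0193, 0.0184 and 0.0173 TPM in the vehicle libraries and 10.2, 9.32 and 9.45 TPM in the enzalutamide libraries (log2 change 3.38, SE 0.0429, adjusted p = 1.2e-07). TNC passed the filter through the enzalutamide libraries, which favours a rise. TRIB2, a pseudokinase that is also outside both lists, rose from 1.15 ± 0.067 to 71.6 ± 3.42 TPM (5.07).

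The drug response was also set beside that of cells with OGDHL guide 1, in a fit of 12 libraries with an interaction term. Guide 2 was left out because its vehicle libraries stand apart. They had 1407, 1630 and 1537 rows at 0, beside 3847, 3972 and 4100 in the control vehicle libraries. With 1 guide, an effect of OGDHL loss and one of that guide cannot be told apart. In the 3 guide 1 vehicle libraries the mitochondrially encoded genes held 57.2% to 73.8% of deposited TPM. The response differed for 3519 genes (23.8%), with 1397 more positive and 2122 more negative with guide 1. That split depended on scaling: it was 1920 and 1766 with median-of-ratios scaling and 1568 and 1849 with quantile normalization. With the mitochondrially encoded genes kept it was 196 and 97. Of the 787 genes that passed the 2-fold rule in control cells, 733 had the same sign with guide 1, 665 had it and were called there, and 556 differed by the interaction test. These genes were chosen by their change in the control libraries, which the interaction test uses again, so a smaller change with guide 1 is favoured by the choice and no direction is read from them. The count of 3519 was 7453 without guide 1 vehicle replicate 3, and 293 of 12020 with the mitochondrially encoded genes kept, where the median interaction moved from -0.02 to 0.30. With those genes kept, 193 of the 622 genes of the 2-fold rule that had a value differed.

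**Figure D5:**
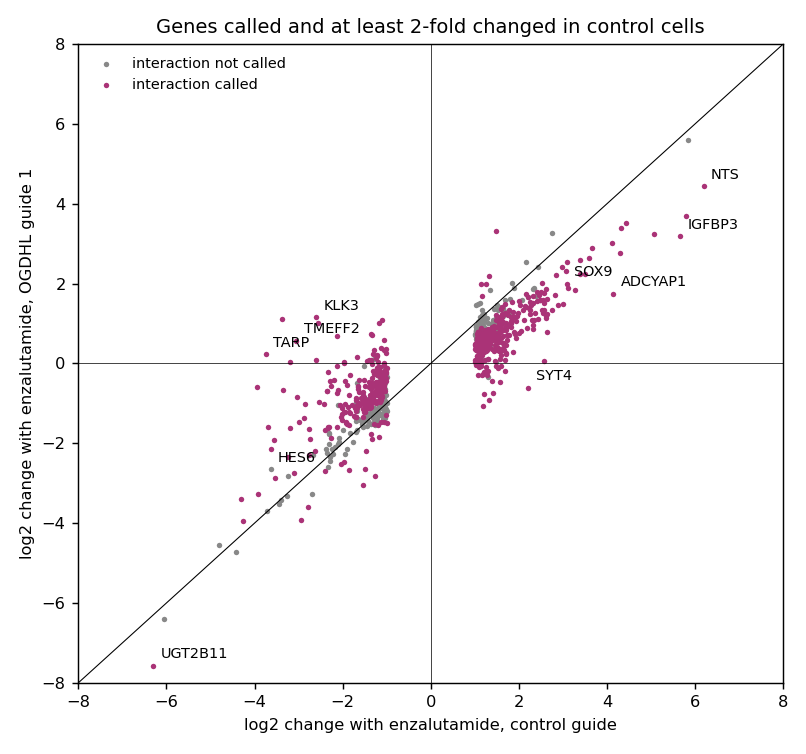
Log2 change with enzalutamide in control-guide cells (horizontal) and in cells with OGDHL guide 1 (vertical) for the 787 genes of the 2-fold rule, with the line of equality. Purple points differed by the interaction test (556 genes), and grey points did not pass it.

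SOX9 rose with guide 1 from 18.6 ± 2.41 to 76.9 ± 2.95 TPM (interaction -1.09, adjusted p = 1.6e-04). All 22 plotted transcription factors of largest change kept their direction with guide 1, 21 of them with a call, and 17 differed by the interaction test. With the mitochondrially encoded genes kept, 9 of these no longer differed, among them SOX9 (-0.74, adjusted p = 0.0926). KLK3 did not keep its direction: it rose with guide 1 from 1106 ± 136 to 2477 ± 104 TPM (interaction 3.76, adjusted p = 1.9e-08). The neurotransmitter-release gene SYT4 rose in control cells from 12.8 ± 1.02 to 62.97 ± 3.08 TPM and went from 16.5 ± 2.72 to 10.4 ± 0.659 TPM with guide 1 (interaction -2.82, adjusted p = 1.3e-06).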

How the data were processed

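RNA-seq of 16D cells was analysed from 1 deposited table of TPM values for 18 libraries, which the authors made from reads aligned with STAR to GRCh38, per the submitters' processing notes; for the annotation and the counting tool, the sources used here give no name. The members and gene lists were chosen with earlier results of these data known. Of 37347 rows, 10345 without a gene name, 37 mitochondrially encoded and 69 of 3 symbols with 5 or more rows were left out, repeated rows of 32 symbols were summed, and each library was rescaled to the same sum. Genes with 1 or more TPM in 3 or more of the 6 libraries (14810) were tested on log2(TPM + 1) with limma 3.58.1 in R 4.3.3 (2 groups, 4 residual degrees of freedom; interaction with guide 1, 12 libraries and 8), with Benjamini-Hochberg adjustment over all genes. The code was tested on simulated data. Python 3.11.15, numpy 2.4.6, pandas 2.3.3 and matplotlib 3.10.9 were used.

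Genes named were those of largest change that were called, had no overlap and had 5 or more TPM in the higher group (12 transcription factors and 15 genes of any kind in each direction), up to 4 rising and 4 falling members of each of 52 lists, 5 interactions in each direction and a short set that includes FOXA1 and MYC. Some genes that this rule names are not reported here. CDH1, ID4, SYP, 7 of the HOX genes and the genes of the last section, which fall outside this rule, were named after their values were seen. Pseudogenes were taken out of the lists after values were seen. RefSeq entries (GRCh38.p14) matched 14603 genes by symbol. Alternatives changed the pseudocount, filter, scaling, libraries in the fit, replicate block, weights and prior, and left out each library in turn.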

Additional observations from a re-analysis of the deposited data

Results flagged for a closer look

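The drug response differed between control-guide cells and cells with OGDHL guide 1 (interaction test over 12 libraries, adjusted p under 0.05) for each gene below. Values are the log2 change with guide 1 minus that with the control guide. The most positive were MAGEA1, a cancer-testis antigen (4.63), LINC00161, a long non-coding RNA (4.48), TARP (3.98), KLK3 (3.76) and TMEFF2, a prostate membrane protein (3.62). MAGEA1 went from 8.1 ± 0.502 to 4.97 ± 0.3897 TPM with the drug in control cells and from 4.06 ± 0.173 to 81.4 ± 1.31 TPM with guide 1. TMEFF2 went from 7.57 ± 0.0937 to 0.0342 ± 0.0165 TPM in control cells and from 8.65 ± 0.663 to 13.3 ± 0.498 TPM with guide 1.

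The most negative were SYT4 (-2.82), TMSB4XP6 (-2.52), IGFBP3 (-2.48), NR4A1AS (-2.47) and ADCYAP1 (-2.39). TMSB4XP6 is a pseudogene that shares sequence with TMSB4X, and NR4A1AS is antisense to NR4A1, so their values are uncertain. Leaving out single libraries ended the call of TMSB4XP6 (adjusted p = 0.0666 without control vehicle replicate 3) and of NR4A1AS (adjusted p = 0.0793 without control vehicle replicate 1).

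The transcription factors below were chosen by their change in the control libraries, which the interaction test uses again. A smaller change with guide 1 is thus favoured by the choice, and no direction is read from their differences. Among the transcription factors of largest change that rose, the difference was -1.11 for BHLHE22, -0.81 for FOXQ1, -1.09 for SOX9, -1.103 for HOXA13, -1.25 for DLX3 and -0.65 for NKX6-1. It was -0.44 for ZIC2, -0.72 for HES1, -0.72 for ZNF629 and -0.43 for HOXB6. Among those that fell it was 1.51 for DLX1, 0.47 for SNAI2, 0.503 for ZBTB10, 0.995 for CEBPD, 1.22 for ZBTB16 and 0.57 for EHF, and -0.97 for MAF, which fell further with guide 1. With the mitochondrially encoded genes kept, the call was lost for SOX9, HES1, ZIC2, NKX6-1, ZNF629, HOXB6, MAF, SNAI2 and ZBTB10. The part that the mitochondrially encoded share plays in these differences was not tested.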

How the results depend on the processing

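The count of called genes, 9127, was 4194 with the mitochondrially encoded genes kept, and 7994 to 8721 when each library was left out in turn. The 418 genes at least 2-fold higher became 676 with a pseudocount of 0.1, 150 with a pseudocount of 5, 263 with a filter at 5 TPM and 191 with the mitochondrially encoded genes kept. The 369 at least 2-fold lower became 139, 226 and 241 under the last 3 of these settings. The interaction count, 3519, was 293 with the mitochondrially encoded genes kept, 9645 with array weights (a fit that did not reach its convergence tolerance) and 2441 to 7453 when each library was left out, the highest without guide 1 vehicle replicate 3. Where an arm kept 2 libraries, the spread was pooled over groups.

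Same-numbered libraries did not deviate together (correlations 0.0048, 0.0126 and -0.0717, beside -0.0849 to 0.0817 for libraries of different numbers). With 3 libraries a group, these values cannot show whether the numbers pair them. With a replicate block 8210 genes and 2775 interactions were called. Of 523 named genes 520 were called in control cells, 452 of them with the same sign and call in each of 17 alternatives that gave a value, and none reversed. The cause of these shifts was not tested, apart from filters, which test other genes. Depth is unknown, so no limit of detection can be given.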

Other observations

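A block of related genes on the long arm of the X chromosome rose together. BEX, TCEAL, ARMCX and GPRASP genes lie between 101418278 and 103630953 on chromosome X (RefSeq, GRCh38.p14). Of 18 tested, 17 were higher in enzalutamide and none lower, 4 at least 2-fold, with a median of 0.65. TCEAL2 had 0.273, 0.309 and 0.308 TPM in the vehicle libraries and 5.4, 5.36 and 5.69 TPM in the enzalutamide libraries, and TCEAL9 had 92.1, 85.5 and 90.6 TPM in the vehicle libraries and 216, 221 and 235 TPM in the enzalutamide libraries. BEX5 went from 27.5 ± 1.53 to 62.6 ± 0.428 TPM (1.16) and BEX1 from 56.2 ± 3.43 to 112 ± 7.62 TPM (0.98). With guide 1 the median over the same 18 genes was 0.07. The block was chosen after its values were seen.

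AIDA, an axin-binding regulator of JNK signalling on chromosome 1, had 22.3, 23.5 and 21.7 TPM in the vehicle libraries and 512, 495 and 519 TPM in the enzalutamide libraries (log2 change 4.44). Of the tested genes on either side of it, BROX went from 33.3 ± 3.53 to 190.1 ± 9.46 TPM (2.48) and MIA3 from 42.9 ± 1.16 to 79.1 ± 2.66 TPM (0.87). AIDA has pseudogene copies, so the split of its reads is uncertain, and the 2 neighbours were named after their values were seen.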
